A study of Rattus norvegicus with 10 samples.

Results

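Neuropeptide Y (*Npy*) and its receptors *Npy1r* and *Npy5r* were examined in the brain of calorie-restricted rats. They were represented by 4 of the 31099 probe sets of the array, chosen as every probe set whose only gene symbol in the platform annotation was a member of this set of 3 genes. *Npy* and *Npy1r* had a single probe set each (1387154_at and 1390828_at), and *Npy5r* had a pair of them (1387497_at and 1369246_a_at). The groups were male Wistar rats, an outbred laboratory strain, studied from 6 weeks of age. Daily intake of the AIN-93G diet was recorded in rats fed ad libitum. For 1 week the restricted groups were given 5, 10, 20 or 30% less than that intake (calorie restriction, CR). Control rats were given the whole intake for the same time. All rats, controls included, were fasted for 16 h before sampling. The labels give the tissue as brain and the methods of the study narrow it to the hypothalamus area. RNA of 5 rats was pooled for each group and hybridized to 1 Affymetrix array, so that no group had a second array, and the number of arrays limits the precision of every value. A pooled tissue sample cannot separate fewer cells of a type from less RNA per cell.

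Neuropeptide Y is a peptide transmitter that stimulates feeding and lowers energy expenditure. In the hypothalamus it is made mainly by neurons of the arcuate nucleus, which also release agouti-related peptide and GABA, and its mRNA in rodents is known to increase with food deprivation. Interneurons of the cortex, hippocampus and striatum also make it, many of them together with somatostatin. Its receptors act through inhibitory G proteins that lower cyclic AMP and open potassium channels, and the Y1 and Y5 receptors carry much of the feeding response, whereas the Y2 receptor restrains release from the nerve endings.

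The sequence ahead of *Npy* is shown because *Npy* was the member whose signal differed from control. It is the 250 bases before the annotated transcription start in RefSeq (GRCr8, chr4:80211861-80212110, + strand), with matches to the motifs searched in capitals.
Npy: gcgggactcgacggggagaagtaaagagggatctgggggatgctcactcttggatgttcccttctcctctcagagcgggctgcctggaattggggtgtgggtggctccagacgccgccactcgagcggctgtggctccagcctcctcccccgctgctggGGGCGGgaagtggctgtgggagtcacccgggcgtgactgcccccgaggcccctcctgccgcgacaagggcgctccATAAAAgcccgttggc
The capitals are a GC box (GGGCGG), which Sp1 binds, starting 91 bases before the start, and the TATA-like run ATAAAA starting 16 bases before it. On both strands of the 33469 windows of that length in the table, GGGCGG was found in 30.5% and ATAAAA in 18.6%. The window of *Npy* held no TATAAA (12.9% of windows), TGACGTCA or its core TGACG, to which the CREB family binds (1.59% and 18.2%), GTAAACA of forkhead factors (3.22%), TTCNNNGAA of STAT factors (7.67%) or AGAACA of the glucocorticoid receptor (17.5%). Its G and C content was 67.6%, against a median of 51.2% over all windows. In the same assembly *Npy1r* and *Npy5r* are next to each other on chromosome 16, on opposite strands, head to head and with no gene listed between them.

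Every comparison of CR with control rests on a single control array, and that array was unlike the others. The correlation of log2 signals over probe sets was 0.912 to 0.922 among the CR arrays and 0.852 to 0.874 between them and the control. Signals under 10 made up 11.7 to 14.4% of the CR arrays and 24.0% of the control array. All 12 of the 12 probe sets of the poly-A spike-ins, which are added to the RNA before labelling, were lower in CR (median log2 difference -1.29), and the 3′/5′ log2 signal ratio of GAPDH, a sign of RNA quality, was 0.40 to 0.79 in the CR arrays and 0.19 in the control array. The part of these differences in the results was not tested. The 1 month arrays were not used, because their rows did not follow the probe set identifiers (correlations of 0.036 to 0.052 with the 1 week arrays in 25 pairs).

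Defining genes of the hypothalamus were strongly detected in all 5 arrays. *Pmch*, melanin-concentrating hormone of the lateral hypothalamus, had a signal of 8130 to 8942 in the CR arrays and 7157 in the control array. Of the 10 hypothalamic markers 8 were on the array under these symbols, *Agrp*, the partner peptide of *Npy* in arcuate neurons, not among them. *Pomc*, which marks the neighbouring arcuate neurons, was near background at 4.9 to 14.8 in the CR arrays and 2.6 in the control array. *Pomc* was the only arcuate marker of this list on the array and had a single probe set. Detection calls were not used, so that its low signal does not show whether arcuate neurons were in the sample. Of the markers of tissues that also hold NPY interneurons, *Neurod6*, *Neurod2*, *Slc17a7* and *Tbr1* of the cortex and hippocampus reached at most 101.9 on any array, and *Lamp5* 201.7. *Tbr1* was at 42.0 to 101.9 in CR and 1.3 in control, *Neurod2* at 19.1 to 39.5 and 14.7, and *Slc17a7* at 14.2 to 49.2 and 13.6. *Neurod6* was lower, at 14.5 to 26.2 in CR and 38.3 in control. These genes were too dim to be tested, except for *Lamp5*. The striatal list included *Penk*, at 1034.1 to 1351.1 in the CR arrays and 1472.0 in the control array, *Ppp1r1b*, at 288.0 to 350.5 in the CR arrays and 337.3 in the control array, and *Pde10a*, at 177.7 to 241.0 in the CR arrays and 132.0 in the control array. Its other members reached at most 137.7 (*Drd2*).

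*Npy* was higher in every restricted group than in control, at a level that hardly varied with the degree of restriction. Its signal was 806.8 in the control array and 1884.2, 2034.6, 1758.6 and 2000.8 at 5, 10, 20 and 30% CR. All 4 CR arrays lay above control, as they did for 37.1% of all tested probe sets, and the highest CR value was 1.16 times the lowest. The ratio to control was 2.34-fold at 5%, 2.52-fold at 10%, 2.18-fold at 20% and 2.48-fold at 30% CR. At these levels 20.7, 21.9, 22.6 and 19.5% of all tested probe sets were also more than 1.5-fold higher, and 12.4% were so at all 4 levels.

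**Figure D1:**
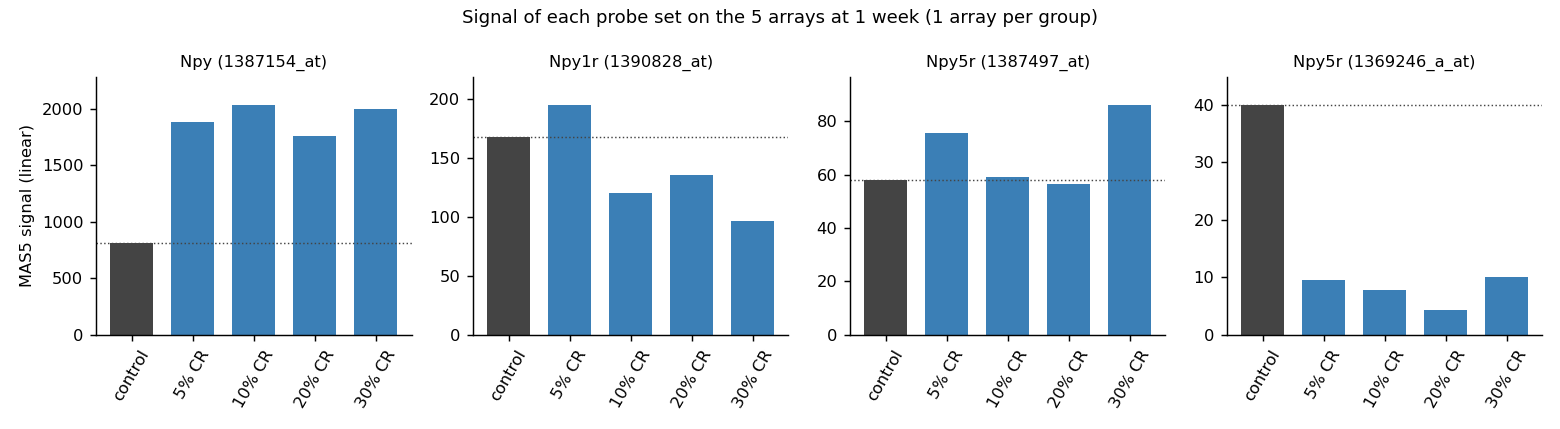
MAS5 signal (linear axis from 0) of the 4 probe sets on the control array (dark, its level dotted) and on the 5, 10, 20 and 30% CR arrays (blue), with 1 array per group. *Npy* stands at 1758.6 to 2034.6 in the CR arrays and at 806.8 in control, *Npy1r* and 1387497_at of *Npy5r* overlap control, and 1369246_a_at of *Npy5r* is at or below 10.1 in the CR arrays.

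Over the 4 CR arrays *Npy* rose by 1.25 ± 0.10 on the log2 scale (SD, n = 4), which is 2.38-fold, with a 95% confidence interval of 0.98 to 1.51 and an adjusted p of 0.000257 by limma across 15521 probe sets. The 4 CR arrays stand for different levels, so that their SD also holds any effect of level, and the test takes the spread of the only control array to be theirs. An exact permutation test of 4 arrays against 1 cannot go below p = 0.2. In this comparison 25.5% of all tested probe sets were called, 14.5% higher and 11.0% lower (2246 and 1712 probe sets, against 1017 and 5057 with the arrays scaled to equal medians). Its difference was reached or exceeded by 1030 of the 15521 probe sets (6.64%), and by 68 of the 1552 brightest (4.38%), among which *Npy* falls with a geometric mean signal above 868.9. Of these brightest probe sets 45.9% were called, 26.5% higher and 19.5% lower.

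The rank of *Npy* on each array, which scaling of a whole array leaves as it is, was also higher in CR. Its probe set was at the 97.9 to 98.3 percentile of all signals on the CR arrays and at the 94.0 percentile on the control array. When the arrays were scaled to equal medians, the log2 difference of *Npy* was 0.81 (adjusted p = 0.00122 by limma), and the median over all tested probe sets was then -0.41, whereas it was 0.03 as deposited. Median scaling moves every probe set of an array alike, so that the difference of *Npy* relative to the median was by construction the same in both cases, 1.22.

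**Figure D2:**
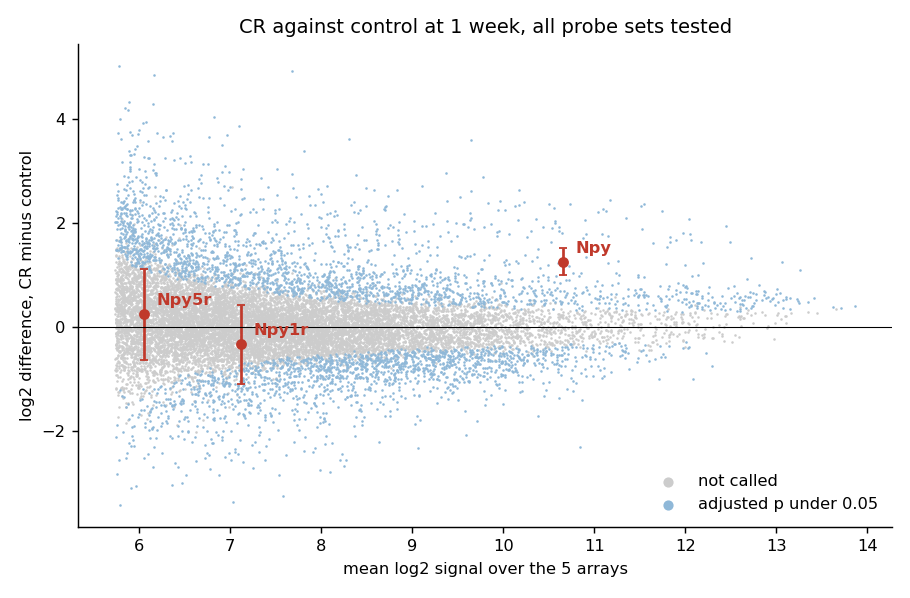
Mean log2 ratio of the 4 CR arrays to control (vertical axis) plotted over mean log2 signal (horizontal axis) for the 15521 tested probe sets (blue for an adjusted p under 0.05 by limma, grey otherwise). *Npy*, *Npy1r* and *Npy5r* (1387497_at) are in red with 95% confidence intervals, and only that of *Npy*, at 1.25, lies clear of 0.

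Whether *Npy* followed the degree of restriction was asked without the control array. The order of its levels was 10, 30, 5 and 20% CR, high to low, and each neighbour in that order was closer to the next than the spread that limma estimated for an array at this signal (0.11 on the log2 scale). The trend over the 4 CR arrays was 0.00 per 10 percentage points of restriction, with an interval of -0.13 to 0.14 (adjusted p = 0.999). The 20 and 30% arrays differed from the 5 and 10% arrays by -0.06, with an interval of -0.31 to 0.19 (adjusted p = 0.968). No probe set of the array passed either test by limma (0.0% each), with 743 (4.79%) and 783 (5.04%) at an unadjusted p under 0.05, so that only the intervals, and not the missing calls, bear on how flat the levels of *Npy* were.

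*Npy1r*, which encodes the Y1 receptor, did not pass against control, and its lowest signal was on the 30% CR array. It was 167.8 in the control array and 194.9, 120.4, 135.5 and 96.6 at 5, 10, 20 and 30% CR. The 5% array was above control and the other 3 were below it, so that the groups overlapped. The mean log2 difference was -0.34 ± 0.42 (SD, n = 4), with an interval of -1.11 to 0.42 (adjusted p = 0.504 by limma). At 30% CR the ratio to control was 0.576-fold, past 1.5-fold in the lower direction as were 13.7% of tested probe sets at that level.

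Over the 4 CR arrays the slope of *Npy1r* was -0.31 per 10 percentage points of restriction, with an interval of -0.62 to -0.01. Its unadjusted p was 0.0443, and 4.79% of the tested probe sets had an unadjusted p under 0.05. Its adjusted p was 0.999 by limma. A slope as low or lower was seen in 2.62% of the tested probe sets. The slope was -0.16 without the 5% array (adjusted p = 0.929), which held the highest value. The moderate groups were -0.42 from the mild groups, with an interval of -1.10 to 0.26 (adjusted p = 0.943), a difference that was -0.07 without the 5% array and -0.77 without the 10% array.

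**Figure D3:**
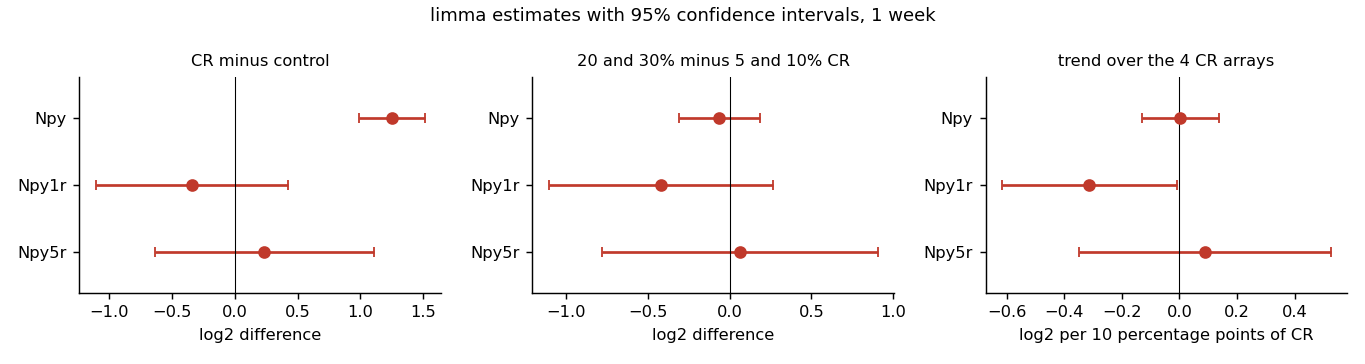
Estimates by limma with 95% confidence intervals for *Npy*, *Npy1r* and *Npy5r* (1387497_at), for CR minus control, the 20 and 30% minus the 5 and 10% CR arrays, and the trend over the 4 CR arrays, on the log2 scale. *Npy* is above 0 against control and near 0 in the others, and the trend of *Npy1r* (-0.31) has an upper limit of -0.01 before adjustment.

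*Npy5r*, which encodes the Y5 receptor, gave opposite differences in its 2 probe sets. The brighter, 1387497_at, had a signal of 58.1 in the control array and 75.7, 59.0, 56.6 and 86.2 at 5, 10, 20 and 30% CR. The 20% array was just below control and the other 3 above it. Its mean log2 difference was 0.23 ± 0.29 (SD, n = 4), with an interval of -0.64 to 1.11 (adjusted p = 0.702 by limma), and its direction was reversed by quantile and cyclic loess normalization (-0.09 and -0.14). With median scaling it was -0.20, which holds the shift of all probe sets, and relative to the median it was 0.20 with and without that scaling. Neither the trend over CR levels (0.09, interval -0.35 to 0.53) nor the difference between moderate and mild groups (0.06, interval -0.78 to 0.91) passed.

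The other probe set of *Npy5r*, 1369246_a_at, had a signal of 40.0 in the control array and 9.5, 7.7, 4.2 and 10.1 at 5, 10, 20 and 30% CR. All CR values were below control, as in 33.1% of tested probe sets, by a mean of -2.42 ± 0.58 on the log2 scale (SD, n = 4). Its mean signal did not reach the level for testing (a geometric mean of 53.3), and without that filter it had an adjusted p of 0.0833 by limma, where 21.5% of 31042 probe sets were called and 5.61% were called lower. Detection calls were not used here, so that signals of 4.2 to 10.1 cannot be told from background. Among the 3061 genes with exactly 2 probe sets, 42.5% had differences of opposite sign, and in 10.4% the gap was at least that of *Npy5r* (2.66).

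The remaining ligands and receptors of the family were dim. *Ppy*, pancreatic polypeptide, had a signal of 16.6 in the control array and 106.1, 30.8, 143.5 and 85.0 at 5, 10, 20 and 30% CR, a log2 difference of 2.26 ± 0.96 (SD, n = 4; adjusted p = 0.0414 by limma). Its mean signal was above the filter only through the CR arrays, and the call was lost under 8 of 11 alternatives, where the adjusted p ranged from 0.00298 to 0.225. *Pyy*, peptide YY, was at 8.0 to 15.5 in the CR arrays and 0.5 in the control array. *Npy2r*, the presynaptic Y2 receptor, was at 4.0 to 10.1 in the CR arrays and 9.2 in the control array, and *Npy4r* at 9.8 to 83.1 in the CR arrays and 9.8 in the control array. These 3 genes were not tested, and *Npy6r* was not on the array under that symbol.

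Over all the pathway lists 36 of 52 genes on the array passed the signal filter, of which 4 rose and 10 fell. These are 11.1% and 27.8% of the tested genes, against 14.5% and 11.0% of all tested probe sets, and the median log2 difference was -0.25, against 0.03 over all. The shares called grew with signal, and 12 of the 36 genes were among the 1552 brightest probe sets. Of these 12 genes 3 rose and 3 fell, where 26.5% of the brightest were called higher and 19.5% lower. *Ppy* and *Gnai1* reached the signal filter through 1 group only, the one in which they were high, and of the other 34 genes 3 rose and 9 fell. With median scaling *Npy* was the only one of the 4 higher genes to keep its call. With the arrays scaled to equal medians 22 of the 36 genes were called, where 6074 of all 15521 tested probe sets were, 5057 of them lower. Without the intensity trend 7 of the 36 were called, against 2737 of the 15521.

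Of the melanocortin circuit, only *Cartpt* passed the signal filter. It encodes CART, a peptide that reduces feeding, and its signal was 1972.9 in the control array and 2980.7, 3380.0, 2982.6 and 2978.4 at 5, 10, 20 and 30% CR. The log2 difference was 0.64 ± 0.09 (SD, n = 4; adjusted p = 0.00292 by limma), and the call was lost with median scaling (adjusted p = 0.204, the highest of 12 alternatives, the lowest being 0.00216). *Mc4r*, the melanocortin receptor through which agouti-related peptide acts, was at 14.6 to 63.8 in the CR arrays and 21.7 in the control array and was not tested.

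Among the regulators of NPY neurons, 1 of 6 tested genes passed, where 25.5% of all tested probe sets were called and 11.0% were called lower. *Crem*, a transcription factor of the cyclic AMP response, was lower by a log2 difference of -0.82 ± 0.19 (SD, n = 4) in its brightest probe set (adjusted p = 0.0227 by limma), with signals of 152.2 to 207.8 in the CR arrays and 315.0 in the control array. Its other 2 tested probe sets were at -0.65 and -0.23 and did not pass. *Creb1* (-0.51), *Stat3* of leptin signalling (-0.16), the insulin-responsive *Foxo1* (0.39), the glucocorticoid receptor *Nr3c1* (0.22) and *Irs2* (0.08) did not pass. The brightest probe sets of the leptin receptor *Lepr* (34.8 to 61.2 in CR, 19.7 in control), the ghrelin receptor *Ghsr* (13.8 to 71.1 in CR, 27.2 in control), *Insr* and *Socs3* were too dim to be tested.

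Of 9 tested genes of peptide processing and secretory granules, 2 fell and none rose. Of these genes 7 were among the 1552 brightest probe sets, where 19.5% were called lower. *Pcsk1n*, which encodes proSAAS, an inhibitor of the prohormone convertase PC1, fell by 1.09 (SD 0.20; adjusted p = 0.00144), with 1305.3 to 1778.2 in the CR arrays and 3266.8 in the control array. *Scg3*, secretogranin III, fell by 0.42 (SD 0.04; adjusted p = 0.0188), a call lost without the intensity trend (adjusted p = 0.108). The carboxypeptidase *Cpe* (0.27, adjusted p = 0.0601), the amidating enzyme *Pam* (-0.38, adjusted p = 0.0502) and the convertase *Pcsk2* (-0.76, adjusted p = 0.112) act on pro-NPY and other prohormones, and none of them passed by limma. The median of the list was -0.38.

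Of 12 tested genes of receptor signalling, 6 fell and none rose, against 11.0% lower over all tested probe sets. Without *Gnai1*, which reached the filter through the control array only, 5 of 11 fell, with a median of -0.56. The inhibitory G protein subunits to which NPY receptors couple were among them. *Gnai2* fell by 1.05 (SD 0.17; adjusted p = 0.00208), with 428.1 to 550.1 in the CR arrays and 960.9 in the control array. *Gnao1* fell by 0.74 (SD 0.05; adjusted p = 0.00284). *Gnai1* fell by 2.57 (SD 0.69; adjusted p = 0.0108), with 20.0 to 59.9 in the CR arrays and 229.5 in the control array. The adenylyl cyclases *Adcy2* (-0.56) and *Adcy3* (-0.70) and the arrestin *Arrb2* (-0.59) also fell, and these 3 calls were lost under 5, 6 and 3 alternatives. The potassium channel subunit *Kcnj6* (-0.18) and *Gnaz* (0.32) did not pass. *Rgs4*, which shortens G protein signalling, did not pass in its brightest probe set (-0.29), whereas the other fell by 2.23 (adjusted p = 0.00119).

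**Figure D4:**
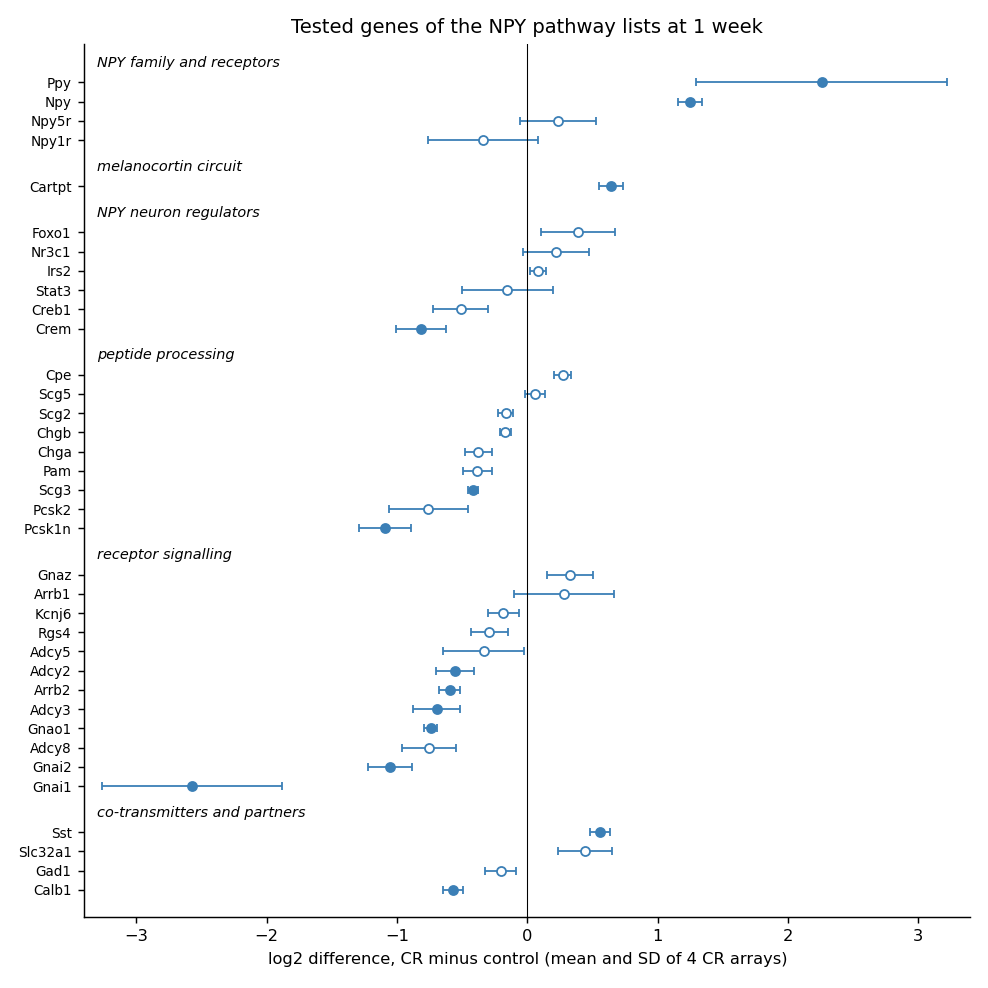
Log2 ratio to control (horizontal axis) of the 36 tested genes of the pathway lists (rows), as mean and SD of the 4 CR arrays. Filled symbols mark an adjusted p under 0.05 by limma. In the receptor signalling list 6 of 12 genes are filled, each below 0, and *Npy* is at 1.25.

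Among the co-transmitters and partners of NPY neurons, *Sst*, somatostatin, rose by 0.55 (SD 0.08; adjusted p = 0.00559 by limma), with 2068.0 to 2347.5 in the CR arrays and 1511.3 in the control array. That call was lost with median scaling and without the intensity trend. *Calb1*, calbindin, fell by 0.57 (SD 0.08; adjusted p = 0.00653), and its call was lost without that trend. The GABA vesicle transporter *Slc32a1* was at 0.44 and the GABA-synthesizing enzyme *Gad1*, in its brightest probe set, at -0.21, and neither passed. *Gad2*, which also encodes a GABA-synthesizing enzyme, was at 23.2 to 38.0 in the CR arrays and 124.7 in the control array. The dimmer probe set of *Gad1* was at 4.4 to 19.7 in the CR arrays and 61.0 in the control array. Both were under the signal filter and were not tested.

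Some markers of neighbouring tissues differed from control together with *Npy*. The pituitary list had 7 genes on the array, of which *Tshb*, *Lhb* and *Cga* were tested and called higher, as were 14.5% of all tested probe sets. *Tshb* and *Lhb* reached the filter through the CR arrays only. *Cga*, the common hormone alpha subunit, had signals of 1713.9 to 2332.9 in the CR arrays and 877.4 in the control array. It was among the 1552 brightest probe sets, of which 26.5% were called higher. The summed signal of the pituitary list, most of it from *Cga*, was 1983 to 2825 in CR and 970.1 in control. *Gh1* was at 8.0 to 50.6 in the CR arrays and 10.7 in the control array, and *Prl*, *Pou1f1* and *Pomc* were at or below 29.8 on every array. The choroid plexus list, 4 genes, summed to 223.2 to 309.4 in CR and 127.3 in control, and *Ttr*, called higher, likewise reached the filter through the CR arrays only. Its other tested gene, *Folr1*, was not called (59.1 to 105.2 in CR, 68.0 in control). Of the untested genes *Otx2* was at 28.7 to 60.1 in CR and 16.7 in control, and *Kl* at 2.9 to 4.0 in CR and 7.1 in control. Besides *Npy*, the interneuron list held *Sst*, which rose, and *Nos1*, which was not tested (29.2 to 86.1 in CR, 10.1 in control). *Sst* and *Nos1* summed to 2097 to 2404 in CR and 1521 in control, most of it from *Sst*. The cortical list summed to 297.8 to 354.1 in CR and 241.7 in control and the striatal list to 1895 to 2118 in CR and 2193 in control. Of their tested members 0 of 1 and 1 of 6 were called, against 25.5% of all tested probe sets. The called striatal gene was *Pde10a*, which rose by 0.70 ± 0.20 (SD, n = 4; adjusted p = 0.0473 by limma). The other tested probe set of *Pde10a* was at 0.25 ± 0.44 (SD, n = 4) and did not pass, with 41.8 to 78.8 in CR and 55.6 in control. The hypothalamic list summed to 31592 to 34755 in CR and 30069 in control, with *Resp18* higher and *Trh* lower. Of 6 myelin genes 3 fell, and of 5 astrocyte genes 1 rose and 1 fell, against 14.5% higher and 11.0% lower over all tested probe sets. Of these genes 3 of myelin and 4 of astrocytes were among the 1552 brightest probe sets, where 26.5% were called higher and 19.5% lower. Over every tested probe set of these genes, 5 of 11 fell for myelin, and 2 of 9 rose and 4 fell for astrocytes. Probe sets of the same gene could disagree, as for *Mbp* (0.07, -0.56 and -2.32) and *Slc1a3* (-0.10, 1.34 and -2.62), so that these counts give no common direction. The part of these tissues in the value of *Npy* was not tested.

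The genes whose 4 ratios to control were most like those of *Npy*, by the root mean square difference on the log2 scale among 9478 other genes, were *Ptprc* (0.07), *Emp2* (0.07), *Usp6nl* (0.09), *Ebf1* (0.10) and *Sipa1l3* (0.10). All 5 were dim, with control signals of 28.4 to 52.8, under the filter level of 53.3. They reached the filter through the CR arrays only, in which they were high. For *Npy1r* they were *Larp7* (0.12), *Bnip2* (0.13), *Fkbp14* (0.14), *Esam* (0.16) and *Tmod3* (0.16), and for *Npy5r* *Fn3k* (0.07), *Amot* (0.08), *Rrp9* (0.08), *Dcaf4* (0.09) and *Ankrd37* (0.09). All of these ratios share the same control array.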

How the data were processed

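Each group's pooled RNA (5 rats) was hybridized to 1 Affymetrix Rat Genome 230 2.0 array. The authors deposited linear signal intensity from MAS5 (named in the submitters' notes), and every 1 week array had the same trimmed mean (158.8). Because MAS5 subtracts mismatch signal, log ratios of dim probe sets are imprecise. Of the 10 arrays the 5 of 1 week were used.

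Signals were taken as log2, after 4 values of 0 were set to 0.1. A single gene symbol was annotated for 20832 of the 31099 probe sets, several for 436 (not named here) and none for 9831. The 57 control probe sets were left out, and probe sets above the 50th percentile of mean log2 signal (15521) were tested with limma 3.58.1 (R 4.3.3; eBayes with intensity trend, Benjamini-Hochberg adjustment over all of them, threshold 0.05). Comparisons were CR against control, the trend over the 4 CR arrays, and 20 and 30% against 5 and 10% CR. P-values rest on the spread among the CR pools, each at a different level, as limma adjusts it over probe sets. No level had a second pool, so they do not measure the spread between pools of the same level. Ratios at single levels have no test and were counted past 1.5-fold. Each gene of a list was represented by its brightest probe set. Named were all member probe sets, up to 4 genes per list that passed, and the 5 genes nearest to each member. Members and lists were chosen with earlier results of these data known. Other listed genes, markers included, were named after their values were seen. The fits were tested on simulated data, in which the control array was drawn with the means and spread of the CR arrays. That test therefore does not cover a control array unlike the others, as the real one was. Python 3.11.15 (pandas 2.3.3, matplotlib 3.10.9) was used for the rest. Alternatives were median, quantile and cyclic loess scaling, no filter or the 75th percentile, a pseudocount of 13.7, robust eBayes, eBayes without trend, omission of each CR array, a 2-fold limit, every probe set of a gene, and the control as 0% in the trend.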

Additional observations from a re-analysis of the deposited data

Results flagged for a closer look

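Among 17 probe sets (the 4 of *Npy*, *Npy1r* and *Npy5r* and the listed genes that passed), 2 had a CR array far from the other 3, with a gap above the 95% critical value of Dixon's ratio of gap to range. For *Cartpt* the gap was 0.99 of the range, the 10% CR array being at 3380.0 and the others at 2978.4 to 2982.6, against 1972.9 in control. For *Gnao1* it was 0.84, the 5% CR array being at 591.6 and the others at 630.6 to 638.2, against 1040.2 in control. Chance alone gives about 1 such gap in 20 groups, and the 4 arrays are different levels of CR.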

How the results depend on the processing

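*Npy* stayed above control and past the threshold under all 12 alternatives run, with log2 differences of 0.81 to 1.34 (adjusted p 0.000198 to 0.0112 by limma), and of 1.22 to 1.29 when each CR array was left out. Every alternative kept the same single control array, since only CR arrays were left out. The alternatives therefore cannot show how far a difference from control depends on that array. *Npy1r* stayed below control and unpassed under 11 (-0.78 to -0.19, and -0.53 to -0.19 on leaving out an array). *Npy5r* (1387497_at) never passed, was 0.12 to 0.32 on leaving out an array, and was reversed by quantile (-0.088) and cyclic loess scaling (-0.14). With median scaling it was -0.20, by the shift of all probe sets, and 0.20 relative to the median. The trend of *Npy* was reversed by quantile (-0.0071) and cyclic loess scaling (-0.0015) and ranged from -0.087 to 0.027 on leaving out an array, and that of *Npy5r* from -0.25 to 0.27. With the control as 0% the trend of *Npy* was 0.28 (adjusted p = 0.791 by limma), which then includes the difference from control. On leaving out an array the difference of moderate from mild groups ranged from -0.15 to 0.031 for *Npy*, from -0.77 to -0.07 for *Npy1r* and from -0.24 to 0.37 for *Npy5r*. The number of probe sets called for CR against control was 6074 with median scaling (1017 higher and 5057 lower), 6685 without the filter (4943 and 1742) and 3455 to 4084 on leaving out an array, against 3958 (2246 and 1712). Without the intensity trend it was 2737 (1731 and 1006). Leaving out an array gave 3 to 30 calls for the trend and 0 to 11 for moderate against mild groups, and robust eBayes 1 for the last. Of the listed genes 22 were called with median scaling, 7 without the intensity trend and 11 to 13 on leaving out an array, against 14. At 2-fold 2436, 2705, 2884 and 2201 probe sets passed at 5, 10, 20 and 30% CR, against 5501, 5981, 6170 and 5157 at 1.5-fold. No paired analysis was possible because each group had 1 array and the labels give no replicate numbers.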
